A study of Mus musculus with 3 samples.

Results

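The genes described here belong to the induction of the kidney mesenchyme and the first steps of nephron formation. There were 7 of them, chosen by name from the genes of that pathway: the ligand genes Wnt9b, Wnt4 and Bmp7, the transcription factor genes Pax2 and Pax8, and C1qtnf12 and Greb1. Each had 1 probe with a value on all 3 arrays, and together they were 7 of the 14047 genes with values on every array. RNA came from CD1 mouse embryos, pooled from both sexes and labelled as normal, with no treatment or genetic change named. Each of the 3 two-colour arrays set metanephroi at 11.5 days post coitum (dpc) in channel 2 beside microdissected metanephric mesenchyme at 10.5 dpc in channel 1, and array 3 had the opposite dye order to arrays 1 and 2. The labels do not say whether the arrays came from separate dissections, so the p-values below measure only the spread between arrays, which may be technical.

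In the developing kidney the ureteric bud, an epithelial branch of the nephric duct, grows into the metanephric mesenchyme and secretes Wnt9b. The mesenchyme next to the bud tips condenses, switches on Wnt4 and turns into epithelial vesicles, each of which becomes a nephron. Pax2 and Pax8 act in both the duct and the forming nephron, and Bmp7 keeps the progenitor cells alive and dividing. Comparing whole metanephroi with the earlier mesenchyme asks how these transcripts differ between the later stage, with the bud inside, and the earlier one.

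All values are log2 ratios of the 2 channels as the authors normalized them. The sources used here do not say which channel is the numerator. The sign of a value therefore shows only which genes lie on the same side, and no tissue is assigned to either sign. Nor do they say whether array 3 was already turned to run the same way as the others. Its ratios over 19660 probes had Pearson correlations of 0.05 with array 1 and 0.01 with array 2, against 0.32 between arrays 1 and 2. The Spearman correlations were 0.21 and 0.17, against 0.47, and 59.3% and 57.7% of probes had the same sign as on array 3, against 70.4% between arrays 1 and 2. Array 3 was used as deposited, and values from arrays 1 and 2 alone are given where they differ. The values used here are ratios without intensities, so no level can be read and the presence of a tissue's defining markers could not be checked. In whole tissue a ratio cannot tell more cells of a type from more RNA per cell.

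The stretch of 250 bases before the start site is shown for the 4 members that had the same sign on every array and an entry in the RefSeq promoter table. They let the 2 Wnt ligand genes be set beside Pax8 and Greb1, whose ratios had the opposite sign. All are from build GRCm38.p6, 5′ to 3′ on the gene's strand. Capitals mark CTTTG, the core of the element that TCF and LEF factors bind in canonical Wnt signalling, searched on both strands.
Wnt4, chr4:137277385-137277634, plus strand: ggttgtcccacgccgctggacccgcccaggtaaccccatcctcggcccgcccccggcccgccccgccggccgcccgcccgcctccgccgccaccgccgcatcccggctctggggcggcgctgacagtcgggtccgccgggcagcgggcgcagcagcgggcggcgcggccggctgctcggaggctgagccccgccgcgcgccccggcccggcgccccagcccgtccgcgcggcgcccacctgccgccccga
Wnt9b, chr11:103749822-103750071, minus strand: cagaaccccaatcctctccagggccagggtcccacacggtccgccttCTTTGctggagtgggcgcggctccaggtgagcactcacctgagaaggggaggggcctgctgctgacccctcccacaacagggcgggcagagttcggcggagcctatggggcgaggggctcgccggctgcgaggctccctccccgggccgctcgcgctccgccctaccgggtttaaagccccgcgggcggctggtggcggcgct
Pax8, chr2:24475600-24475849, minus strand: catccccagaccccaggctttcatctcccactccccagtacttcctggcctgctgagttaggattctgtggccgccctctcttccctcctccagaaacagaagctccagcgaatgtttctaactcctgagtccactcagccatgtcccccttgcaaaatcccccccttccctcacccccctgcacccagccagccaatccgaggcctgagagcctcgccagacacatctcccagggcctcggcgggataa
Greb1, chr12:16800887-16801136, minus strand, the more upstream of its 2 listed start sites: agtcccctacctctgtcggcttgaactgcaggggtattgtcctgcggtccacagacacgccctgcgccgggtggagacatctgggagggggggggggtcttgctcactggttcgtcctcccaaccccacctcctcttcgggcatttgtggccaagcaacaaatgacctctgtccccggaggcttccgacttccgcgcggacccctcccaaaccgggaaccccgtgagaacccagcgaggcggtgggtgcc

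CTTTG occurred once in the Wnt9b stretch and 0 times in the other 3, where 48.6% of 32851 promoters of the same length held it. Pax2, not shown because its arrays differed in sign, held CTTTG once at each of its listed start sites. The Greb1 site not shown held 0. The stretches shown therefore do not give the share of members with CTTTG. Base composition separated the stretches more clearly. The Wnt4 stretch had 44 CpG pairs and 85.2% G and C, with fewer CpG pairs in 99.5% of all promoters. Wnt9b had 22 CpG pairs, Greb1 had 16 at the start site shown and Pax8 had 6, where the median promoter had 6. The other listed start site of Greb1 had 2 CpG pairs and 46% G and C, so its place depends on the start site. These are descriptions of the windows and say nothing of the factors that act on them.

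Of the 7 genes, C1qtnf12 and Wnt4 lay on the positive side and Greb1 and Pax8 on the negative side, each with the same sign on all 3 arrays. Wnt9b was close to 0 and slightly positive on every array, while Bmp7 and Pax2 had arrays on both sides of 0. By limma, 0 of the 7 passed a Benjamini-Hochberg adjusted p of 0.05, as did 0% of all 14047 genes, whose adjusted p started at 0.149. Of the members 2 positive and 2 negative ones had an unadjusted p under 0.05, which is 57.1% of them, against 19.6% of all genes, 9.89% on the positive and 9.69% on the negative side. Sign was shared by all 3 arrays for 5 of the 7 members and for 45.4% of all genes. The members were chosen with results of these arrays already known, so these shares are a description.

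**Figure D1:**
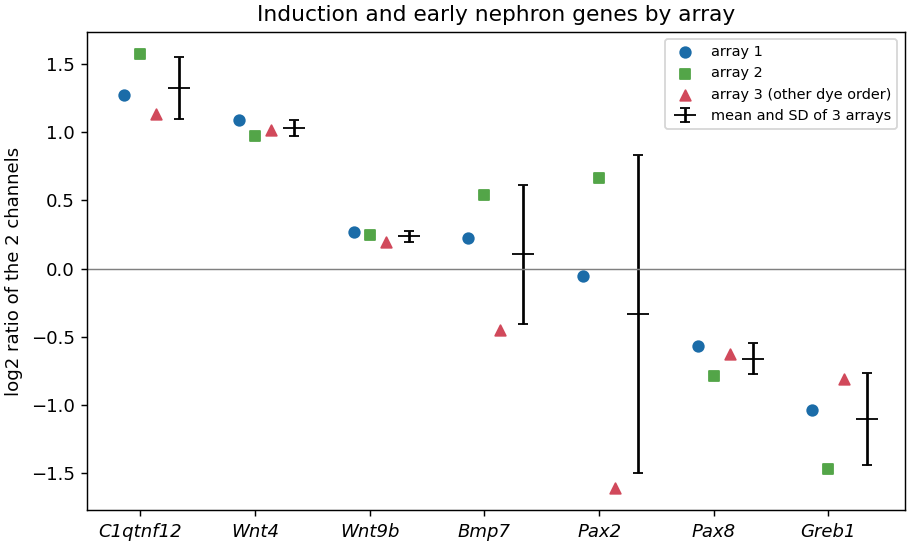
Log2 ratio of the 2 channels (vertical axis) for each member on arrays 1, 2 and 3 (circles, squares and triangles), with the mean and SD of the 3 arrays in black. The 3 points of Wnt4 and of Wnt9b nearly coincide, whereas those of Pax2 run from 0.66 to -1.61.

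Wnt9b, the signal from the ureteric bud, had log2 ratios of 0.27 on array 1, 0.25 on array 2 and 0.19 on array 3. All 3 lay within 0.08 of each other and above 0. The mean was 0.24 ± 0.04 (SD, n = 3), a 1.18-fold difference, with a 95% interval from -0.14 to 0.61 and an adjusted p of 0.409 by limma. The SD of Wnt9b was smaller than that of all but 1.29% of genes. Limma draws such small spreads toward the typical one, and the unadjusted p was 0.154 with that moderation and 0.00928 without it.

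Wnt4, the ligand that drives the condensed mesenchyme to become epithelium, had 1.09 on array 1, 0.97 on array 2 and 1.02 on array 3. The ratio was thus alike under both dye orders as deposited: arrays 1 and 2 averaged 1.03, and array 3 differed from them by -0.01. The mean of 1.03 ± 0.06 (SD, n = 3) corresponds to a 2.04-fold difference (95% interval 1.57 to 2.65), with an unadjusted p of 0.00190 and an adjusted p of 0.149 by limma. Among all genes 96.6% had a lower mean ratio, and 3.13% had a smaller SD. Over the arrays, Wnt4 lay between the 91.1 and 95.1 percentile of all genes' ratios.

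Bmp7, which encodes a bone morphogenetic protein of the bud and the progenitors, had 0.23 on array 1, 0.54 on array 2 and -0.45 on array 3. Arrays 1 and 2 were positive and array 3 was negative. The mean was 0.10 ± 0.51 (SD, n = 3), with an adjusted p of 0.844 by limma and a 95% interval from -0.60 to 0.81. Without array 2 the mean was -0.11, and arrays 1 and 2 alone gave 0.38, so the sign of Bmp7 rests on which arrays are used.

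Pax2, a paired-box factor of the nephric duct, ureteric bud and condensing mesenchyme, had -0.05 on array 1, 0.66 on array 2 and -1.61 on array 3. These values cover 2.28 log2 units, and 90.0% of genes had a smaller SD. Array 3 placed Pax2 at the 1.93 percentile of all genes, array 1 at the 42.9 and array 2 at the 82.7. The mean was -0.33 ± 1.16 (SD, n = 3), with an adjusted p of 0.743 by limma. Arrays 1 and 2 alone gave 0.31.

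Pax8, the related paired-box factor, which is active in the duct and in the early epithelial vesicles, was steady where Pax2 was not. Its ratios were -0.57 on array 1, -0.79 on array 2 and -0.63 on array 3, all below 0. The mean was -0.66 ± 0.11 (SD, n = 3), a 1.58-fold difference (95% interval 1.20 to 2.08), with an unadjusted p of 0.0103 and an adjusted p of 0.169 by limma. By the same fit the unadjusted p was 0.0595 without array 1 and 0.0565 without array 2, at means of -0.71 and -0.60. Pax8 and Wnt4, both genes of the induced mesenchyme, thus had ratios of opposite sign on every array.

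**Figure D2:**
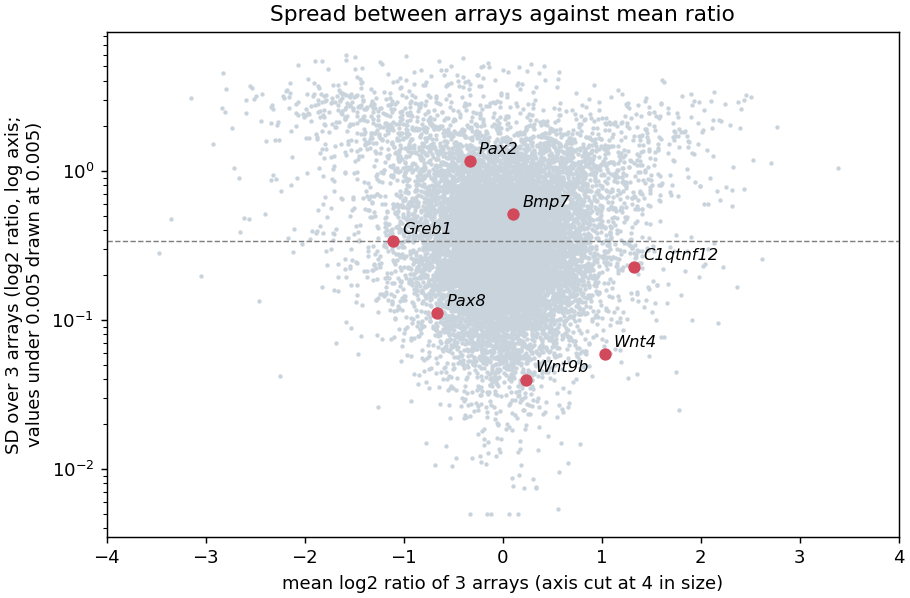
Each grey point is 1 of 14047 genes, with its mean log2 ratio over 3 arrays (horizontal axis) and its SD over the arrays (vertical log axis, dashed line at the median of 0.34). The members are red: Wnt9b and Wnt4 sit among the lowest SDs and Pax2 among the highest.

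C1qtnf12 encodes a secreted protein of the C1q and tumour necrosis factor related family, also named adipolin, and its transcript has been used as a marker of induced mesenchyme. Its log2 ratios were 1.27 on array 1, 1.57 on array 2 and 1.13 on array 3. All were above 1. The mean of 1.33 ± 0.23 (SD, n = 3) was the highest of the 7, a 2.51-fold difference (95% interval 1.82 to 3.45), with an unadjusted p of 0.00150 and an adjusted p of 0.149 by limma. Among all genes 98.3% had a lower mean ratio.

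Greb1, known in human breast cancer cells as an oestrogen-responsive gene and cofactor of the oestrogen receptor, lay at the other end. It had -1.04 on array 1, -1.47 on array 2 and -0.81 on array 3, with every array negative. The mean was -1.11 ± 0.34 (SD, n = 3), a 2.15-fold difference (95% interval 1.47 to 3.15), with an unadjusted p of 0.00532 and an adjusted p of 0.158 by limma. Only 3.55% of genes had a lower mean. Its SD was typical, since 50.0% of genes had a smaller one.

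In order of mean ratio the genes ran C1qtnf12, Wnt4, Wnt9b, Bmp7, Pax2, Pax8 and Greb1. C1qtnf12 exceeded Wnt4 on all 3 arrays, by 0.30 ± 0.26 (SD, n = 3), a margin close to its own spread. Wnt4 exceeded Wnt9b on every array by 0.79 ± 0.06. Wnt9b and Bmp7, Bmp7 and Pax2, and Pax2 and Pax8 had ranges that overlapped. Pax8 exceeded Greb1 on all 3 arrays by 0.45 ± 0.25. These are differences between ratios and not between levels of the genes.

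**Figure D3:**
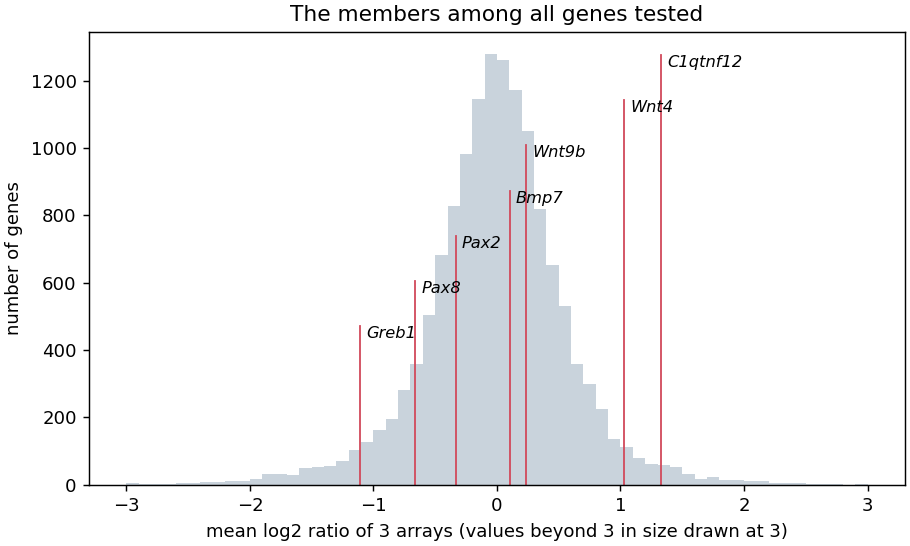
Number of genes (vertical axis) by mean log2 ratio of 3 arrays (horizontal axis), with the 7 members marked in red at their means. C1qtnf12 at 1.33 and Greb1 at -1.11 lie toward opposite ends of the distribution, while Wnt9b and Bmp7 lie in its middle.

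The 5 genes with ratios nearest to those of Wnt4, by Euclidean distance over the 3 arrays among 14046 genes, were Nemf at a distance of 0.09, 3021401C12Rik at 0.11, Meis1 at 0.13, and Ly96 and Zfas1 at 0.15 each. Meis1 is a homeodomain factor of the renal stroma and had 1.05, 1.04 and 0.92 on arrays 1 to 3. With 3 points per gene this likeness is slight information. Of the other members, C1qtnf12 came nearest to Wnt4, at rank 389 and a distance of 0.64, and Greb1 was farthest, at rank 13191.

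Other early nephron genes did not share 1 sign. Of 41 listed, 35 had values on all arrays, with 14 positive and 21 negative means and a median of -0.05, beside -0.002 for all genes. At an unadjusted p under 0.05 there were 4 positive and 2 negative, or 17.1% against 19.6% of all genes, and 0 passed adjustment by limma. The 4 with the smallest p were Mecom, a zinc finger factor gene, at 1.48 ± 0.35, Wfdc2, a secreted whey acidic protein family gene, at 1.41 ± 0.51, Cdh6, the cadherin of early proximal tubule precursors, at 0.58 ± 0.13, and Irx1, an Iroquois factor gene of the tubule, at -0.49 ± 0.13 (SD, n = 3). Lhx1, a factor of the renal vesicle that acts after Wnt4, had a value on array 1 alone, at -2.05. Jag1, a Notch ligand, had 0.09 and 0.31 on arrays 1 and 3.

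Nephron progenitor and Wnt9b-responsive genes had means of both signs, and those at an unadjusted p under 0.05 were mostly on the side of Wnt4. Of 27 measured, 16 had a positive and 11 a negative mean, with a median of 0.13. Over all genes 6999 means were positive and 7048 negative. At an unadjusted p under 0.05 there were 9 positive and 1 negative, or 37.0% of the list against 19.6% of all genes. The list was written with earlier results of these data known, so this share is a description. The 4 with the smallest p were Crym, a thyroid hormone binding protein gene, at 1.91 ± 0.10, Wt1, the zinc finger factor needed for the mesenchyme to survive, at 1.75 ± 0.04, Btbd11 at 1.51 ± 0.11 and the transcriptional co-regulator gene Cited2 at 1.29 ± 0.28 (SD, n = 3). All 4 were positive and do not stand for the whole list, where 11 means were negative. The adjusted p of these 4 by limma was 0.149 to 0.150, and 0 genes of the list passed. The median of this list was 0.26 on array 1, 0.34 on array 2 and 0.08 on array 3. The median of the gene means was 0.35 without array 3 and 0.064 without array 1, so its size rests on which arrays are used.

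**Figure D4:**
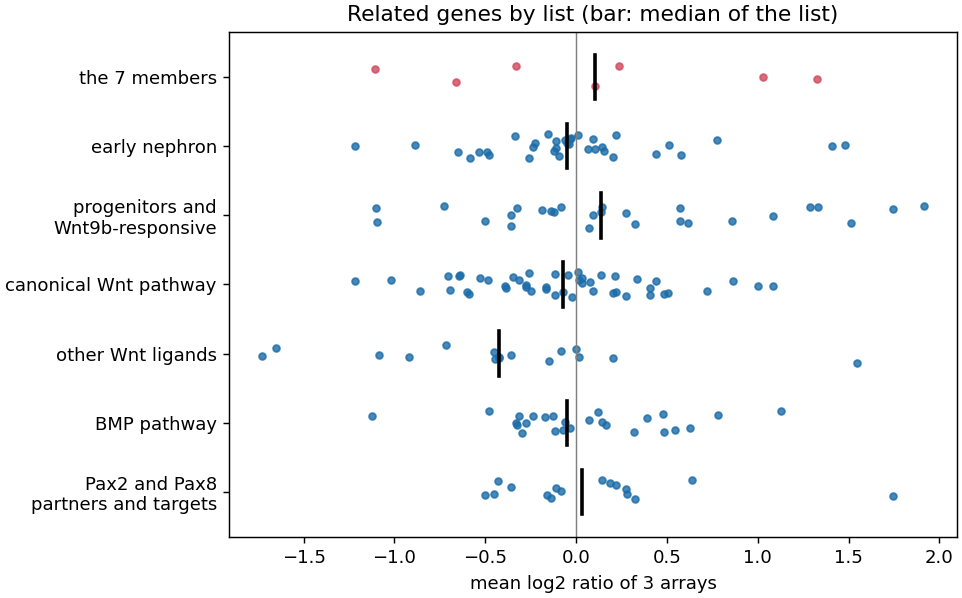
Mean log2 ratio over 3 arrays (horizontal axis) of each measured gene, in rows for the 7 members (red) and 6 lists of related genes (blue), with a black bar at the median. The progenitor list has its median at 0.13 and the other Wnt ligands at -0.42, and points of both signs appear in every row.

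Of the 16 other Wnt ligand genes, 13 had a negative and 3 a positive mean, and the median was -0.42. It was -0.57 on array 1, -0.51 on array 2 and 0.06 on array 3, so the negative median came from arrays 1 and 2. At an unadjusted p under 0.05 there were 1 positive and 2 negative, or 18.8% against 19.6% of all genes, and 43.8% had 1 sign on all arrays against 45.4%. Wnt8a had 1.54 ± 0.10, Wnt2 had -1.73 ± 0.87, Wnt6 had -0.92 ± 0.42 and Wnt7a had -0.36 ± 0.05 (SD, n = 3).

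Of 47 measured genes of the canonical Wnt pathway, from Frizzled receptors to secreted inhibitors, 21 had a positive and 26 a negative mean, with a median of -0.07. At an unadjusted p under 0.05 there were 5 positive and 4 negative, or 19.1%, near the 19.6% of all genes. The R-spondin genes Rspo1 at 1.08 ± 0.43 and Rspo3 at 0.86 ± 0.48, whose proteins strengthen Wnt signals at the receptor, and the Dickkopf gene Dkk2 at 0.72 ± 0.18 were on the side of Wnt4. Other genes of these families did not follow. Rspo4 had -0.28 ± 0.60, and Rspo2 had 1.30, 1.56 and -1.42 on arrays 1 to 3. Dkk1 at 0.01 ± 0.15 and Dkk3 at 0.09 ± 0.06 lay near 0. Nkd2, whose protein restrains Dishevelled, had -1.02 ± 0.31 (SD, n = 3).

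Around Bmp7, 26 genes of ligands, receptors, SMADs, antagonists and targets had 12 positive and 14 negative means and a median of -0.05. At an unadjusted p under 0.05 there were 3 positive and 1 negative, or 15.4% against 19.6% of all genes. Among BMP target genes, Id1 at 0.63 ± 0.25 and Id2 at 0.48 ± 0.08 were positive, but Id3 had 0.72, 0.76 and -0.02 on arrays 1 to 3. The ligand gene Bmp5 had 0.78 ± 0.37. Bmp2 had -0.48 ± 0.19, Bambi -0.33 ± 0.23 and Smad6 -0.13 ± 0.28 (SD, n = 3). Partners and targets of Pax2 and Pax8 were evenly placed, with 8 positive and 8 negative means among 16 and a median of 0.03. Wt1, which also belongs here, and Ret, the bud's receptor for GDNF, at -0.43 ± 0.11 were the 2 at an unadjusted p under 0.05, or 12.5% of that list. Gata3 had 0.64 ± 0.53 and Hoxa11 had -0.36 ± 0.10.

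Markers of other tissues that a dissection could hold were counted in the same way, where 19.6% of all genes had an unadjusted p under 0.05. These lists too were written with earlier results of these data known, so their shares are a description. On the side of Wnt4 and C1qtnf12 were renal stroma genes, with 9 of 12 means positive, a median of 0.61 and 50% at that p. On the side of Pax8 and Greb1 were somite and muscle genes, with 10 of 11 negative, a median of -0.77 and 45.5% at that p. Limb and flank genes, with 8 of 9 negative, a median of -0.72 and 55.6%, and endothelial genes, with 8 of 8 negative, a median of -0.41 and 62.5%, lay there too. Gonad, adrenal and mesonephros genes had 12 of 12 means negative, but their median was -0.15, with 0.12 on array 2, only 8.33% were at that p, and 2 of 12 had 1 sign on all arrays. Ureteric bud genes had 8 positive and 12 negative means, a median of -0.03 and 30% at that p. Blood genes had 3 positive and 4 negative means, a median of -0.02 and 42.9%. That median pools opposite signs. The macrophage genes Tyrobp at 0.70 ± 0.17 and Lyz2 at 0.81 ± 0.27 were on the side of Wnt4. The erythroid regulator gene Klf1 had -1.10 ± 0.14, but other erythroid genes of the list lay nearer 0. The globin genes Hbb-y had 0.01 ± 0.26, Hba-x -0.02 ± 0.28 and Hbb-bh1 -0.04 ± 0.45, and Alas2 had -0.20 ± 0.20 (SD, n = 3). The part of these tissues in the ratios of the 7 genes was not tested.

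**Figure D5:**
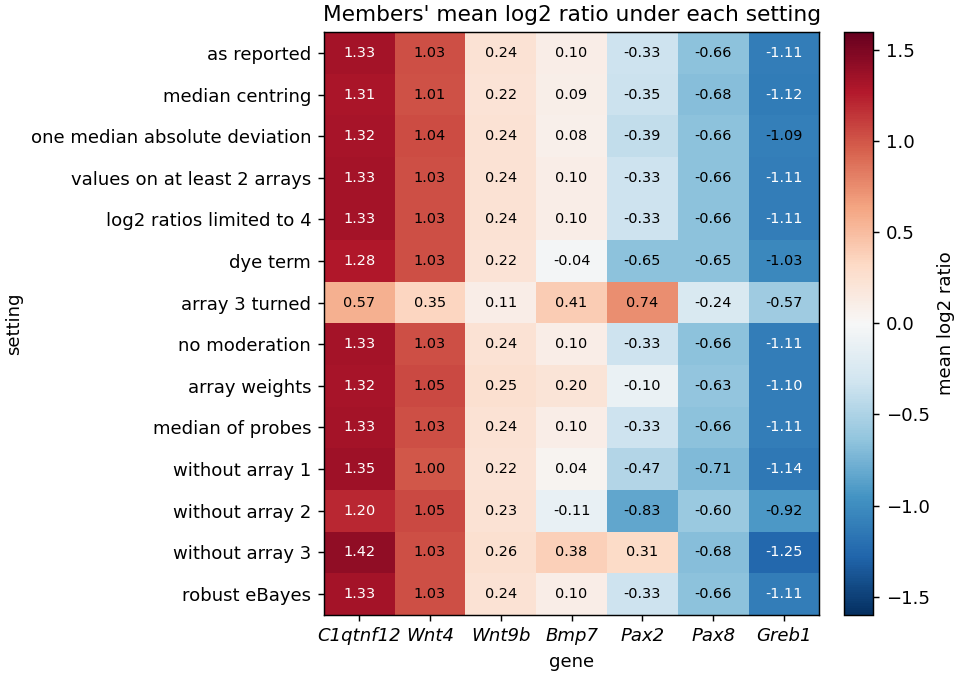
Mean log2 ratio of each member (columns) as reported and under 13 other settings (rows), with the value printed in each cell and coloured by sign and size. C1qtnf12, Wnt4, Wnt9b, Pax8 and Greb1 keep their sign in every row, and Bmp7 and Pax2 do not.

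The 4 members at an unadjusted p under 0.05 lost it when array 3 was turned the other way. Wnt4 then had a mean of 0.35, C1qtnf12 of 0.57, Pax8 of -0.24 and Greb1 of -0.57, and 0 of the 7 remained at that threshold. Turning 1 of 3 like ratios must shrink their mean and widen their spread. This loss was therefore largely fixed beforehand and does not show which way array 3 runs. Arrays 1 and 2 alone, which share a dye order and need no choice about array 3, gave 1.03 for Wnt4, 1.42 for C1qtnf12, -0.68 for Pax8 and -1.25 for Greb1. A dye effect common to those arrays cannot be told apart from a tissue difference in that pair.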

How the data were processed

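Spots of the Compugen mouse oligonucleotide arrays were read with Imagene 5.5, per the labels. Values were deposited as log2 ratios, which the authors normalized by print-tip lowess and between arrays, per the labels' descriptions, with 20% of the data per lowess point and control values under 10 set to 10. The genome build was not given in the sources used here. Among 22702 rows 21821 held gene probes, and 19660 of these had values on all 3 arrays. Gene symbols came from the platform annotation, where 16658 gene probes had 1 symbol, 137 had several and 5026 had none. Entrez identifiers of 15972 probes matched RefSeq and changed 0 symbols. Probes of a gene were averaged.

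The mean ratio was tested against 0, two-sided, over 14047 genes in limma (version 3.58.1, functions lmFit and eBayes, under R 4.3.3), and p-values were adjusted after Benjamini-Hochberg at 0.05. The fit was tested on simulated data first. In a fit over single probes the smallest adjusted p was 0.193. Values after ± are SDs over arrays. The number of arrays limits the precision. Every member was named, with up to 4 genes of smallest p from each related list and the 5 genes nearest to Wnt4. Lhx1, Jag1, Rspo2, Rspo4, Dkk1, Dkk3, Id3, Bambi, Smad6, Hbb-y, Hba-x and Hbb-bh1 were named after their values were seen. The members and lists were chosen with earlier results of these data known. Lists were described by counts and medians. Promoters came from RefSeq, with entries for 5 members. Figures used Matplotlib 3.10.9 in Python 3.11.15.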

Additional observations from a re-analysis of the deposited data

How the results depend on the processing

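The alternatives listed for this work were median centring, an equal median absolute deviation per array, a minimum of 2 arrays with values, log2 ratios limited to 4 in size, dye order as a term, a turned sign on array 3, no moderation, robust eBayes, array weights, the median of a gene's probes, and each array left out in turn. The settings on joining and filtering probes could not move a member's own ratio, since each has 1 probe with a value everywhere. At an adjusted p of 0.05 by limma the count was 0 genes under every one of the 13 alternatives. At an unadjusted p under 0.05 it was 2750 in the fit as reported, and the highest was 3979 with array weights. That unadjusted count fell to 779 once the sign of array 3 was turned, and leaving out single arrays gave 1156 to 2943. Wnt4, Wnt9b, C1qtnf12, Pax8 and Greb1 kept their sign under all 13. This was largely fixed beforehand, since each had 1 sign on all 3 arrays. Leaving out, scaling or weighting arrays and the dye term only average values of that sign. No moderation, robust eBayes and the limit of 4 leave these means unchanged. Turning array 3 alone cannot outweigh arrays 1 and 2 when the ratios are alike. The kept sign therefore adds no support. Bmp7 had -0.035 with the dye term and -0.11 to 0.38 with an array left out. Pax2 had 0.74 with array 3 turned and -0.83 to 0.31 with an array left out. The number of members at an unadjusted p under 0.05 was 4 under all alternatives but array 3 turned, with 0, no moderation, with 5, and without array 1 or array 2, with 3 each. Wnt9b was the added member. List medians were followed for the lists of related genes and not for the tissue marker lists. Of the medians followed, 3 changed sign. The BMP pathway list had 0.19 without array 1, 0.0065 without array 2, 0.0047 with the dye term and 0.018 with array 3 turned. The list of Pax2 and Pax8 partners and targets had -0.13 without array 1, -0.066 with the dye term and -0.033 with array 3 turned, and the early nephron list had 0.034 with array 3 turned. The progenitor list kept its sign, with 0.064 to 0.35 when an array was left out and 0.34 with array weights. With ratios alone, signal over background is unknown.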

Other observations

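Some Wnt pathway and early nephron genes outside the members had a large ratio on array 3 whose sign opposed that on arrays 1 and 2. They were picked here after their values were seen. Lgr5, a receptor for R-spondins, had -3.38 on array 1, -5.00 on array 2 and 4.73 on array 3. Wnt5b, a Wnt ligand gene, had -3.67 on arrays 1 and 2 alike and 2.38 on array 3. The POU factor gene Pou3f3 of the early nephron had 0.31, 0.63 and -2.54 on arrays 1 to 3, with array 3 lowest, as for Pax2. The cause of these splits was not tested.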
